A study of Mus musculus with 15 samples.

Results

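The genes described here copy DNA during S phase. They are 54 listed genes in 6 roles: 12 that license replication origins, 6 that activate the helicase, 19 of the polymerases and the replication fork, 4 that supply nucleotides, 5 that copy chromatin and its methylation, and 8 of repair and the S-phase checkpoint. Members were taken by symbol from probe sets annotated to exactly 1 gene, and where a gene had several, the brightest by mean log2 signal over all arrays was read. Of the 54, 53 were found among the 18193 genes of the array. Chaf1a was not analysed here because no probe set was annotated to it alone. Of the 53, 52 passed the filter on dim genes, which asked for a signal above the array's median on at least 3 of 15 arrays. The exception was Tyms, the enzyme that makes thymidylate, whose log2 signals of 5.18 to 6.26 lay above the array median on only 1 array. The 121 probe sets annotated to members included 6 chosen ones whose names mark possible cross-hybridisation, those of Mcm4, Mcm5, Pold1, Fen1, Rrm2 and Dnmt1.

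The cells were primary mammary tumour cells from FVB/N mice of genotype MMTV-PyMT, in which the mammary tumour virus promoter drives the polyoma middle T oncogene. They grew without serum and unattached, as mammospheres, with EGF, FGF and B27, and were sampled after 12 days. For the last 2 days they received vehicle, the Notch inhibitor DAPT, the MEK1 inhibitor U0126, the FAK inhibitor TAE226 or the Src inhibitor PP2. Each of the 5 groups had 3 arrays. The oncogene was present in all groups, vehicle included. No dose, animal age or sex is stated in the sources used here. Replicates are labelled as biological, with no word on whether mice or only cultures differed, so the p-values reflect a spread between samples that may be technical.

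Replication begins when the origin recognition complex, Cdc6 and Cdt1 load the hexameric MCM helicase onto DNA, a step called licensing that geminin blocks by binding Cdt1. In S phase Cdc45 and the GINS complex join the helicase and activate it, polymerase alpha with primase lays primers, and the delta and epsilon polymerases extend them with the sliding clamp PCNA. Many of these genes are known targets of E2F transcription factors, which the retinoblastoma proteins hold back until cyclin-dependent kinases act late in G1. In a bulk sample a lower signal of such genes can come from fewer cycling cells or from less RNA per cell, and these cannot be told apart here.

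Members that fell under all 4 inhibitors and members that did not are set side by side by their promoters, searched for letters that E2F factors can bind. The choice of members did not use these letters, though many members are known E2F targets. A match does not show binding, and not every member has one. Sequences are from RefSeq on GRCm38.p6 and run from 250 bases before to 50 after an annotated start. They are written on the gene's own strand, 5′ to 3′, with capitals marking each match to TTCCCGC, to TTCGCGC or to TTGGCGC on either strand. Matches can overlap each other, because the last 4 letters of TTGGCGC and of TTCGCGC read the same on both strands. Mcm5 (chr8:75109259-75109558, plus strand) and Mcm6 (chr1:128359656-128359955, minus strand) encode helicase subunits that passed the test as lower under every inhibitor. Cdt1 (chr8:122567765-122568064, plus strand), the loader, and Rrm2 (chr12:24708004-24708303, plus strand), a ribonucleotide reductase subunit, did not pass as lower under U0126.
Mcm5: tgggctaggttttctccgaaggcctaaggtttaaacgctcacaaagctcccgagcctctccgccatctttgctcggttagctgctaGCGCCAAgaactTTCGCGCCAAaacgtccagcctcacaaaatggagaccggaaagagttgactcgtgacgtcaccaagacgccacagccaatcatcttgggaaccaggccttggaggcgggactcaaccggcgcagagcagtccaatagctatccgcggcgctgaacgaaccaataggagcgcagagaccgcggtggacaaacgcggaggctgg
Mcm6: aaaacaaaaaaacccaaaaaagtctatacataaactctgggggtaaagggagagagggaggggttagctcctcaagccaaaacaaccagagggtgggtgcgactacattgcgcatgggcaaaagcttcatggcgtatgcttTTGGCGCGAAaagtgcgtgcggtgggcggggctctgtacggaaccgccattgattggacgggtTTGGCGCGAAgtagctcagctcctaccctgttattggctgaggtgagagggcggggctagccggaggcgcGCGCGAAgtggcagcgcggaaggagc
Cdt1: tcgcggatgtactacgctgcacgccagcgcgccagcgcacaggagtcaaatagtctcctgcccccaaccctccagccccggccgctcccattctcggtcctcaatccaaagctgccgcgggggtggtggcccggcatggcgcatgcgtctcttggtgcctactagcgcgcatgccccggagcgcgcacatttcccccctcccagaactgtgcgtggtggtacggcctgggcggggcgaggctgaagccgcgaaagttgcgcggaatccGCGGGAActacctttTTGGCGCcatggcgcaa
Rrm2: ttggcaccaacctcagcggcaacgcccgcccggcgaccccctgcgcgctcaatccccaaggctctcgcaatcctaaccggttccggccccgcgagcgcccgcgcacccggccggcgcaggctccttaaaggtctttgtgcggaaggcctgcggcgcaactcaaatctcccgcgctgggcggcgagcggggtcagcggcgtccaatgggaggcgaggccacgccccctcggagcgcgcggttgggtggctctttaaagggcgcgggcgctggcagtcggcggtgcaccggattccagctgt

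The Mcm5 window held 3 matches, which began at -164, -152 and -149 relative to the start. In Mcm6 there were 5, and Cdt1 had 2, both just after the start. The Rrm2 window held none of these letters. The promoter table held 54 promoters of 45 members, and 59.3% of these promoters had at least 1 match, against 8.1% of all 32851 promoters of the same length. Counted by gene, 29 of 45 members had one. Among members lower under U0126 it was 12 of 15 genes, and among members not called under U0126 it was 15 of 26. Among the 10 members lower under all 4 inhibitors, which all belong to those 15, it was 9. A gene with several promoters was counted if any of them had a match. The mitotic genes differed in letters from the members. An E2F match was in 18.2% of their promoters, against 59.3% of members' promoters and 8.1% of all, and in 4 of 21 genes. TTTGAA, the core of the CHR element, was in 77.3% of the mitotic genes' promoters, against 11.1% of members' promoters and 17.9% of all. The CCAAT box, searched as CCAAT on both strands, was in 63.0% of members' promoters, 90.9% of the mitotic genes' promoters and 37.4% of all. Its letters can overlap GCGCCAA, the reverse of TTGGCGC. These shares describe letters in a window and were not tested.

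Array medians ran from 65.96 to 91.00 signal units, and the number of arrays limits the precision. Arrays of 1 group differed by a median of 0.0955 to 0.150 log2 units and arrays of different groups by 0.169 to 0.351. The 3′ to 5′ ratio of the actin control probe sets, a sign of RNA integrity, was 1.42 ± 0.06 (SD, n = 3) in vehicle, 1.35 ± 0.07 under DAPT, 1.28 ± 0.07 under U0126, 1.33 ± 0.07 under TAE226 and 1.57 ± 0.04 under PP2. Its part in the results, with PP2 highest, was not tested. The labels number the samples group by group but state no order of handling, so whether handling followed the groups is not known. All 6 epithelial markers lay above the median on every array. None of the fibroblast, leukocyte, lymphocyte, endothelial and adipocyte markers on the array, 20 in all, did so, and 13 were below the median on every array. Summed fibroblast marker signals ran from 164 to 246 in vehicle, 172 to 218 under DAPT, 157 to 317 under U0126, 250 to 313 under TAE226 and 185 to 307 under PP2, against 61057 to 78207 over all arrays for the epithelial markers. Krt5, a keratin of basal epithelial cells, was 2.30-fold lower under PP2 (adjusted p = 4.61e-09) and 1.41-fold lower under TAE226 (0.000314). It was 1.93-fold higher under DAPT (2.32e-07) and differed by -0.22 on the log2 scale under U0126 (0.0494). Krt14 was lower under PP2 (log2 -0.21, adjusted p = 0.0268) and higher under U0126 (0.44, 0.00018). Epcam was lower under DAPT (-0.38, 8.39e-05) and U0126 (-0.39, 4.41e-05). Under DAPT Krt18 was lower (-0.34, 0.00297) and Cdh1 higher (0.25, 0.0277). Krt8 was higher under U0126 (0.29, 0.00841) and TAE226 (0.26, 0.0188). These markers had no other call against vehicle. Among the other cell types' markers the macrophage gene Adgre1 was 1.92-fold higher under PP2 (adjusted p = 0.00679), with signals above the median on 7 of 15 arrays. The part of these markers in the members' results was not tested.

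Many replication genes were lower under PP2, DAPT and TAE226, at shares above those of all genes. Under U0126 35 of 52 were not called and the share of lower ones was nearer to that of all genes. With PP2, 44 of 52 members were lower and none was higher, at an adjusted p under 0.05, where 26.9% of all 11458 genes tested were lower and 25.9% higher. With DAPT 32 were lower and none higher, against 17.5% and 16.8% of all genes. For TAE226 the counts were 25 and none, against 15.9% and 15%. U0126 lowered 15 members, against 21.3% of all genes, and raised 2, against 19.4%. The median log2 fold change of the 52 members was -0.75 under PP2, -0.33 under DAPT, -0.24 under TAE226 and -0.16 under U0126, while that of all genes was between 0.00 and 0.02. Falls of more than 2-fold were seen for 14 members under PP2 and for none under the other inhibitors. These comparisons share the vehicle arrays, so they are not independent of each other.

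The scaling of the arrays bears on the counts. When each array was centred on the median of all its probe sets, all genes shifted by -0.13 under DAPT, -0.08 under U0126, -0.25 under TAE226 and -0.22 under PP2, and the median of the members went to -0.47, -0.24, -0.50 and -0.97. In that setting 43 members were lower under TAE226 instead of 25, while 37.2% of all genes were lower. The split of all genes into lower and higher became 2446 and 687 under DAPT, 2428 and 1198 under U0126, 4259 and 423 under TAE226, and 4367 and 1207 under PP2. As deposited it was 2002 and 1928, 2441 and 2219, 1820 and 1722, and 3083 and 2963. Under quantile normalization the shifts of all genes were at most 0.03 in size. Of the 25 TAE226 calls 23 were kept there and 3 were gained. When arrays were centred on the median of the genes tested, a setting chosen after seeing the data, 24 were kept and 1 was gained.

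**Figure D1:**
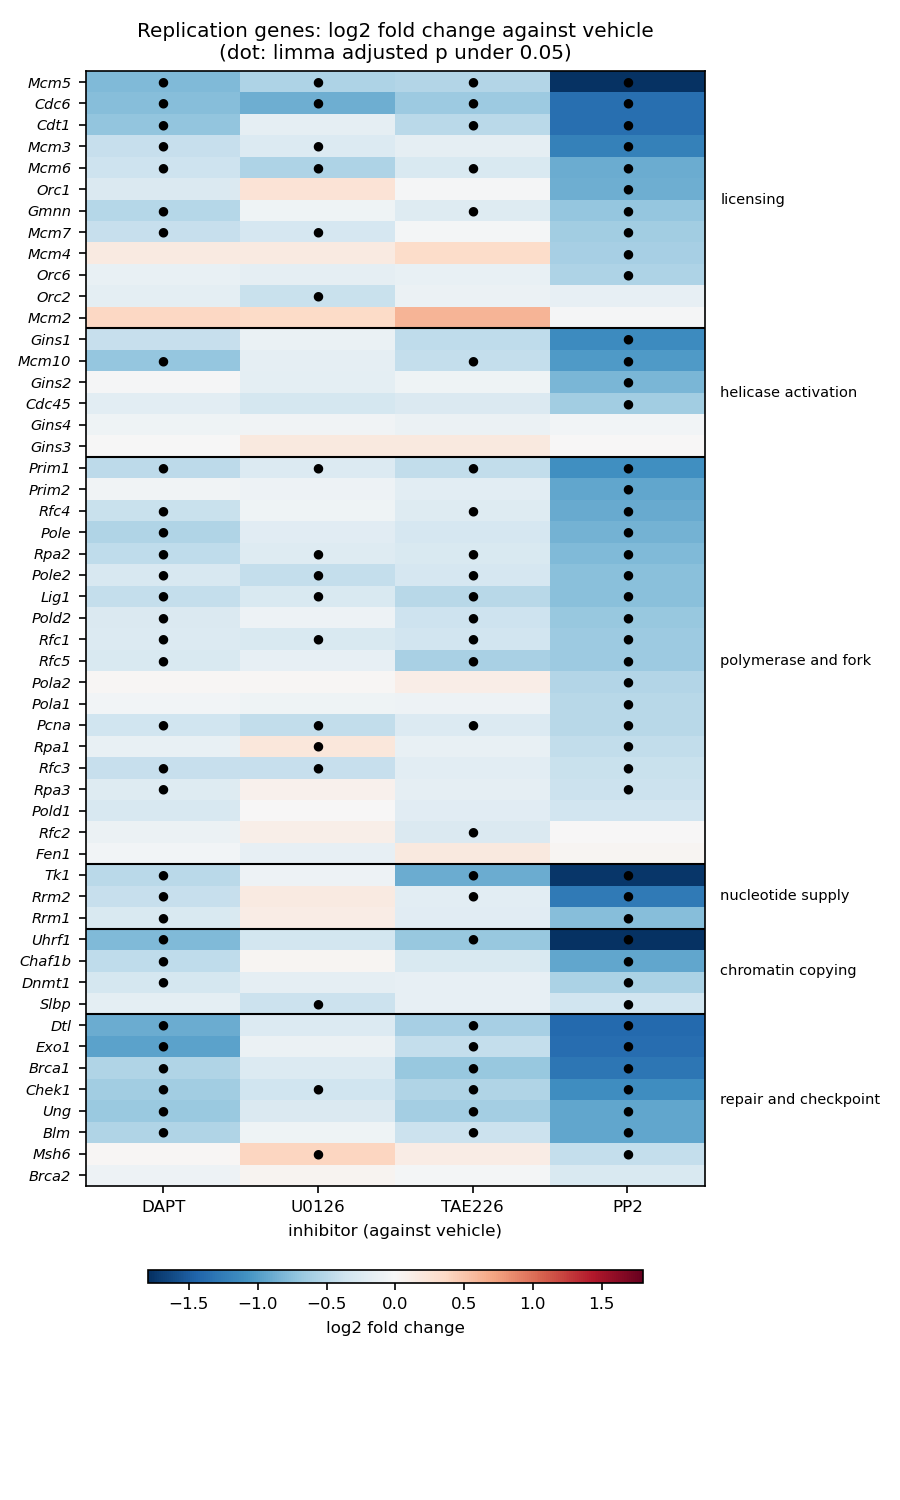
Log2 fold change of each of the 52 tested members (rows, by role) under each inhibitor against vehicle (columns), with blue for lower and red for higher. A dot marks an adjusted p under 0.05. The PP2 column has 44 dots and the U0126 column 17, of which 2 mark rises, Rpa1 and Msh6. With each array centred on its median the Rpa1 rise lost its dot.

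The arrays of inhibitor and vehicle did not overlap for 46 members under PP2, 35 under DAPT, 35 under TAE226 and 29 under U0126, where 58.9%, 46.4%, 43.1% and 48.1% of all genes had no overlap. An F-test over the 5 groups called 47 of 52 members, against 72.9% of all genes. Across the 4 inhibitors, 10 members were lower under all 4: Mcm5, Mcm6, Cdc6, Pcna, Rfc1, Pole2, Prim1, Lig1, Rpa2 and Chek1. A further 17 were lower under 3 inhibitors, 6 under 2 and 13 under 1. The remaining 6, Mcm2, Gins3, Gins4, Fen1, Pold1 and Brca2, did not pass in any of these comparisons as fitted. With each array centred on its median, Gins4 and Pold1 passed as lower under TAE226 (-0.35 and -0.46, adjusted p = 0.0113 and 0.0321) and under PP2 (-0.27 and -0.56, 0.0368 and 0.00891). Brca2 passed under PP2 in that setting, and Mcm2 and Fen1 passed with other choices of probe set. Another bright Pold1 probe set, without the cross-hybridisation mark, gave 0.07, 0.07, -0.02 and -0.04 for DAPT, U0126, TAE226 and PP2 on the deposited scaling.

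A single array could end some calls. All 44 calls under PP2 held when any 1 of the 15 arrays was left out, as did 27 of 32 under DAPT, 14 of 17 under U0126 and 16 of 25 under TAE226. Of the 10 members lower under all 4 inhibitors, Mcm5, Cdc6, Rfc1, Prim1 and Chek1 kept all 4 calls in these refits. Pole2 lost its DAPT call without DAPT array 2, at an adjusted p of 0.0518. Mcm6 lost its TAE226 call without vehicle array 1 or 2 or TAE226 array 1 or 2, at 0.0557 to 0.0826, and Lig1 its U0126 call without vehicle array 1 or 3 or U0126 array 3, at 0.0548 to 0.101. Rpa2 lost its U0126 call without vehicle array 2 or 3 or any U0126 array, at 0.0558 to 0.177, and its TAE226 call without vehicle array 3 or TAE226 array 3, at 0.0958 and 0.0601. The TAE226 call of Pcna was lost without any of 10 arrays (vehicle 1 and 3, DAPT 1 and 2, U0126 1 and 2, all of TAE226, and PP2 3), at 0.0513 to 0.218. Leaving out 1 array also gave calls that the full fit lacked. These were lower calls for Slbp, Gins1, Rpa1 and Pold1 under DAPT, for Uhrf1 and Cdt1 under U0126, for Rpa3, Gins1 and Rfc3 under TAE226, and for Brca2 and Pold1 under PP2. Rrm2 under U0126 and Mcm2 under TAE226 gained calls as higher. The adjusted p-values of these calls lay between 0.00251 and 0.0477.

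Most of the licensing genes fell under PP2, 4 of them by more than 2-fold. Of the 12, 10 were lower under PP2, 7 under DAPT, 6 under U0126 and 5 under TAE226, and none was higher. Their medians were -0.79, -0.39, -0.20 and -0.15 on the log2 scale. With each array centred on its median 9 were lower under TAE226, with a median of -0.40. In that setting 37.2% of all genes were lower under TAE226, and their median was -0.24.

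Mcm5, a subunit of the helicase, had log2 signals of 10.50, 10.47 and 10.54 in vehicle, 9.78, 9.74 and 9.57 under DAPT, 9.97, 9.93 and 9.92 under U0126, 9.99, 10.01 and 9.93 under TAE226, and 8.42, 8.89 and 8.85 under PP2. All arrays of each inhibitor lay below all vehicle arrays, and those of PP2 lay below the rest. The falls were 1.74-fold under DAPT, 1.47-fold under U0126 and 1.44-fold under TAE226, each with an SE of 0.10 on the log2 scale and adjusted p-values of 7.17e-06, 0.000199 and 0.000549. Under PP2 it was 3.43-fold (log2 -1.78, adjusted p = 1.73e-10), which with that of Uhrf1 was the deepest fall of a member in these 4 comparisons.

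Cdt1, which brings the helicase to the origin, gave 10.67, 10.71 and 10.65 in vehicle, 10.00, 10.00 and 9.91 under DAPT, 10.49, 10.52 and 10.55 under U0126, 10.22, 10.24 and 10.12 under TAE226, and 9.20, 9.49 and 9.27 under PP2. The 5 groups stood apart from each other with no overlap between any of them. Cdt1 was 2.57-fold lower under PP2 (log2 -1.36, SE 0.07, adjusted p = 7.31e-11), 1.64-fold under DAPT (adjusted p = 5.72e-07) and 1.4-fold under TAE226 (adjusted p = 4.72e-05). The U0126 difference of -0.16 had an adjusted p of 0.0759 and an unadjusted 95% interval of -0.31 to -0.01.

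Gmnn encodes geminin, the inhibitor of Cdt1. Its log2 signals were 10.43, 10.40 and 10.47 in vehicle, 9.98, 9.89 and 9.88 under DAPT, 10.36, 10.38 and 10.32 under U0126, 10.23, 10.15 and 10.20 under TAE226, and 9.70, 9.75 and 9.76 under PP2. So the loader and its inhibitor had the same order of groups, with vehicle highest, then U0126, TAE226, DAPT and PP2. Gmnn fell by 0.52 under DAPT, 0.24 under TAE226 and 0.69 under PP2 (SE 0.05, adjusted p = 1.07e-06, 0.00263 and 1.18e-08), and the U0126 difference of -0.08 (adjusted p = 0.234) had a 95% interval of -0.19 to 0.03.

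Mcm3, another helicase subunit, read 9.93, 9.88 and 9.95 in vehicle, 9.43, 9.49 and 9.59 under DAPT, 9.69, 9.63 and 9.70 under U0126, 9.83, 9.68 and 9.75 under TAE226, and 8.56, 8.99 and 8.56 under PP2. It fell 2.33-fold under PP2 (adjusted p = 1.55e-08) and 1.33-fold under DAPT (adjusted p = 0.00274). The U0126 fall of 1.19-fold (adjusted p = 0.0475) lost its call without any 1 of the vehicle, DAPT, U0126 or TAE226 arrays, at 0.0511 to 0.125. Cdc6, the origin ATPase that works with Cdt1, was the deepest member under U0126, 1.83-fold lower (log2 -0.87, SE 0.17, adjusted p = 0.000439), and 2.57-fold lower under PP2, where 2 of its 3 signals lay below the array median. Mcm6 was 1.46-fold lower under U0126 and 1.29-fold under DAPT, and Mcm7 was 1.23-fold lower under U0126 and 1.34-fold under DAPT. Mcm7 differed from vehicle by -0.04 under TAE226, and by -0.29 (adjusted p = 0.0169) with arrays centred on their medians.

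The origin recognition genes did not share a pattern. Orc1 fell 1.84-fold and Orc6 1.46-fold under PP2, with neither called under another inhibitor, and 1 of the 3 Orc1 signals under PP2 lay below the array median. Orc2 passed under U0126, 1.32-fold lower (adjusted p = 0.00196), and its PP2 difference was -0.15 (adjusted p = 0.181). With arrays centred on their medians Orc2 also passed as lower under TAE226 and PP2 (adjusted p = 0.032 and 0.0226). The direct contrast of Orc2 between U0126 and PP2 was -0.25 (SE 0.09, adjusted p = 0.0266, and 0.0507 to 0.170 without U0126 array 1 or any PP2 array).

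Some licensing values depend on the probe set. Mcm4, read at 0.17, 0.16, 0.33 and -0.60 for DAPT, U0126, TAE226 and PP2, has another bright probe set at -0.30, -0.37, -0.24 and -1.04, by which it was called lower under DAPT, U0126 and TAE226 as well (adjusted p = 0.01, 0.00167 and 0.0375). Mcm2, read at 0.37, 0.35, 0.62 and -0.03 with an SE of 0.24, has one at -0.12, 0.06, -0.26 and -0.99, and the mean of its probe sets passed as lower under PP2 (-0.51, adjusted p = 0.00868). For Orc2 under U0126 the other 2 probe sets gave -0.07 and 0.09. For Mcm5 another bright probe set gave -0.62, -0.45, -0.32 and -1.47 for DAPT, U0126, TAE226 and PP2. One of Cdt1 gave -0.58, -0.11, -0.26 and -1.13. Both genes also have a probe set above the array median on 0 of 15 arrays. When the mean of all probe sets of a gene was used, dim ones included, Mcm5 lost its calls under DAPT, U0126 and TAE226 (adjusted p = 0.252, 0.221 and 0.522), Cdt1 under DAPT, TAE226 and PP2 (0.241, 0.436 and 0.127), Mcm6 under DAPT, TAE226 and PP2 (0.878, 0.731 and 0.098), Mcm3 under DAPT and U0126 (0.167 and 0.571), Orc1 under PP2 (0.102) and Orc2 under U0126 (0.225).

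Of the 6 genes that activate the helicase, 4 fell under PP2, 1 under DAPT, 1 under TAE226 and none under U0126. The U0126 arm had 0 of these 6 at an adjusted p under 0.05 in the limma fit, and none had an unadjusted p under 0.05 either. The medians were -0.72 under PP2, -0.13 under DAPT, -0.18 under TAE226 and -0.14 under U0126. After median centring of the arrays 5 of the 6 were lower under TAE226, with a median of -0.43, 2 under DAPT, 5 under PP2 and none under U0126. Of all genes 37.2%, 21.3%, 38.1% and 21.2% were lower there under TAE226, DAPT, PP2 and U0126.

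Gins2, a subunit of the GINS complex, had log2 signals of 9.10, 9.04 and 8.98 in vehicle, 9.17, 8.88 and 9.00 under DAPT, 8.93, 8.70 and 8.96 under U0126, 9.02, 8.96 and 8.92 under TAE226, and 8.11, 8.43 and 8.14 under PP2. Only the PP2 arrays stood clear of all the others, 1.76-fold lower than vehicle (log2 -0.82, SE 0.10, adjusted p = 4.68e-06). Gins1 read 8.13, 7.56 and 8.05 in vehicle, 7.63, 7.52 and 7.34 under DAPT, 7.84, 7.70 and 7.86 under U0126, 7.43, 7.81 and 7.14 under TAE226, and 6.62, 6.75 and 6.96 under PP2. It was 2.19-fold lower under PP2 (adjusted p = 6.03e-05), with wide scatter elsewhere. Without vehicle array 2, its lowest, Gins1 was also called lower under DAPT (-0.59, adjusted p = 0.0229) and TAE226 (-0.63, 0.0188). The other two GINS subunits were not called: Gins4 had a PP2 difference of -0.05 (95% interval -0.22 to 0.11) and Gins3 one of 0.01 (-0.33 to 0.35). Gins4 was called lower under PP2 and TAE226 only under median centring among the scalings, as given above. A second, dimmer Gins3 probe set gave -0.66 under PP2, -0.45 under DAPT, -0.27 under TAE226 and 0.04 under U0126.

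Mcm10, which helps start DNA unwinding, gave 7.83, 7.77 and 7.99 in vehicle, 7.35, 7.12 and 7.05 under DAPT, 7.54, 7.86 and 7.73 under U0126, 7.62, 7.30 and 7.37 under TAE226, and 6.85, 6.87 and 6.81 under PP2. It fell 2.03-fold under PP2 (adjusted p = 1.12e-05) and 1.62-fold under DAPT (adjusted p = 0.00104). Its 1.35-fold fall under TAE226 (adjusted p = 0.026) was lost without vehicle array 1 or 3 or TAE226 array 2 or 3, at 0.0533 to 0.0995. Cdc45, the helicase partner, read 7.81, 7.79 and 8.26 in vehicle, 7.82, 7.74 and 7.74 under DAPT, 7.76, 7.61 and 7.54 under U0126, 8.05, 7.51 and 7.50 under TAE226, and 7.11, 7.51 and 7.38 under PP2. Only the PP2 fall of 1.54-fold passed (adjusted p = 0.00514), and with the mean of all probe sets that difference was 0.050 (adjusted p = 0.845).

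**Figure D2:**
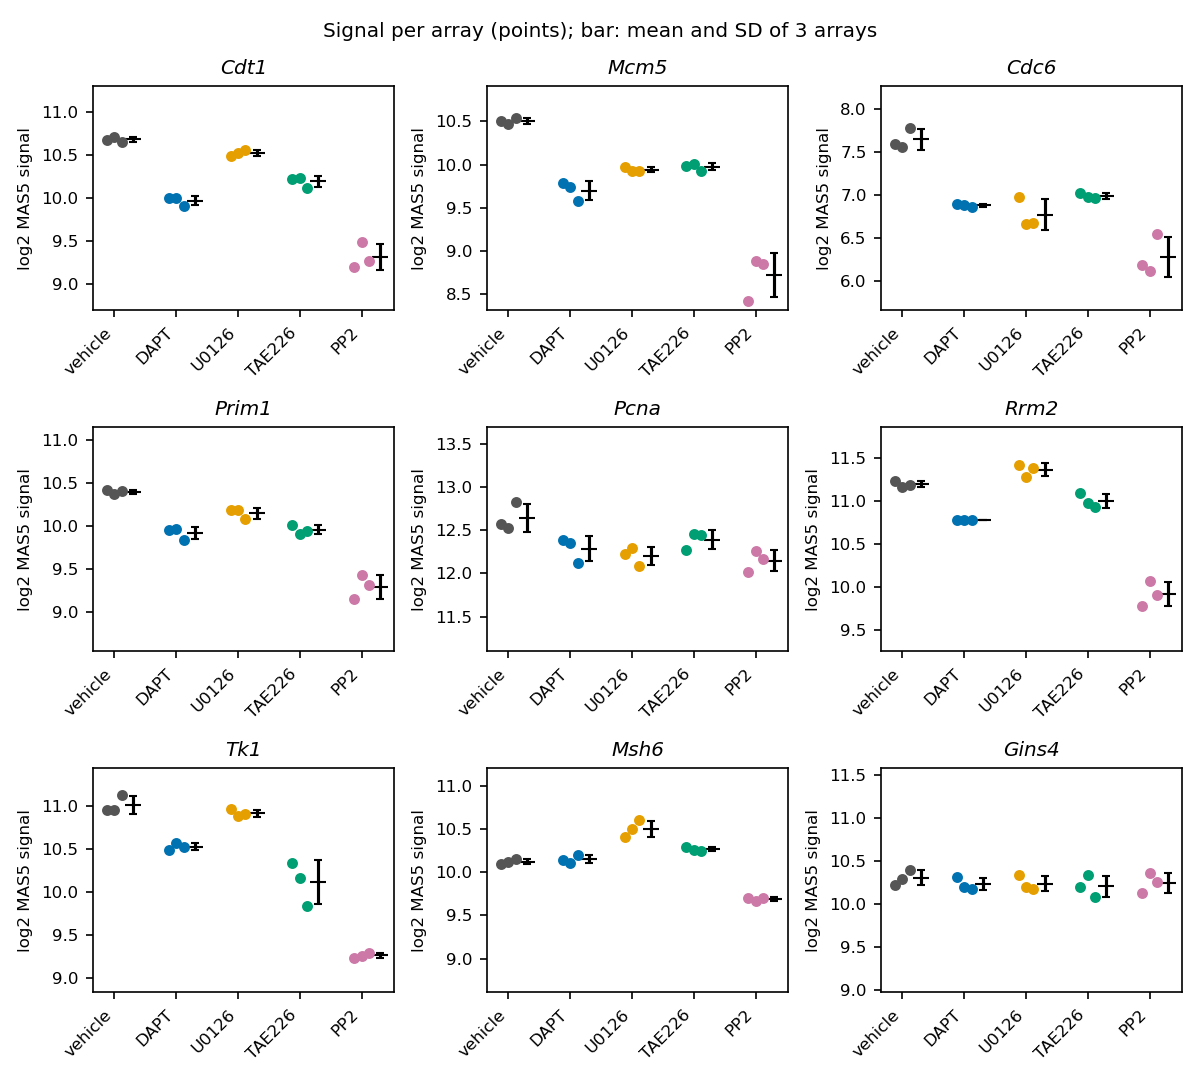
Log2 signal on each array (points) for 9 members in the 5 groups, with the mean and SD of 3 arrays (bars). Every panel spans the same range of 2.6 log2 units. Cdt1, Tk1 and Rrm2 under U0126 lie near vehicle, Mcm5, Cdc6 and Pcna lie below it under every inhibitor, and the Gins4 groups differ by at most 0.10 in their means from vehicle on the deposited scaling.

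The polymerase and fork genes changed by modest amounts, most of them downwards under PP2, DAPT and TAE226. Under PP2 16 of 19 were lower, under DAPT 12, under TAE226 10 and under U0126 7, with 1 higher under U0126. Their medians were -0.65, -0.27, -0.25 and -0.15. Under median centring of the arrays 16 were lower under TAE226 (median -0.51), where 37.2% of all genes were lower, and none was higher under U0126.

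Prim1, the catalytic subunit of primase, had log2 signals of 10.42, 10.37 and 10.40 in vehicle, 9.95, 9.96 and 9.84 under DAPT, 10.18, 10.19 and 10.08 under U0126, 10.01, 9.91 and 9.95 under TAE226, and 9.15, 9.43 and 9.32 under PP2. No inhibitor array reached the vehicle range. The falls were 2.14-fold under PP2 (adjusted p = 1.16e-09), 1.39-fold under DAPT (5.38e-05), 1.36-fold under TAE226 (0.000145) and 1.19-fold under U0126 (0.00876), with an SE of 0.07 on the log2 scale. Prim2, the other primase subunit, was 1.92-fold lower under PP2 (adjusted p = 6.02e-05) and was not called under the other inhibitors, where it differed by -0.06 to -0.19.

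Rfc4, a subunit of the clamp loader, read 9.66, 9.60 and 9.53 in vehicle, 9.19, 9.25 and 9.13 under DAPT, 9.42, 9.51 and 9.63 under U0126, 9.39, 9.35 and 9.35 under TAE226, and 8.58, 8.69 and 8.81 under PP2. It was 1.87-fold lower under PP2 (adjusted p = 4.28e-08) and 1.32-fold under DAPT (0.000603). The TAE226 fall of 1.18-fold (adjusted p = 0.0283) was lost without vehicle array 1 or 2 or any TAE226 array, at 0.0508 to 0.103. The clamp loader did not move as one: Rfc2 differed by 0.00 under PP2 and fell 1.2-fold under TAE226 (adjusted p = 0.037, lost without vehicle array 1 or 2 or TAE226 array 1 or 3, at 0.0772 to 0.115). Rfc5 fell 1.57-fold under PP2 and 1.49-fold under TAE226, Rfc3 fell 1.32- to 1.34-fold under PP2, U0126 and DAPT, and Rfc1 fell under all 4 by 1.18- to 1.57-fold. The Rfc5 call under DAPT (1.21-fold, adjusted p = 0.0233) was lost without vehicle array 2 or 3 or DAPT array 3, at 0.0518 to 0.126. Rfc1 has another bright probe set that went the other way, at 0.23, 0.23, 0.34 and 0.09 for DAPT, U0126, TAE226 and PP2.

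Pold2, an accessory subunit of the delta polymerase, gave 10.22, 9.99 and 10.08 in vehicle, 9.82, 9.84 and 9.85 under DAPT, 9.93, 10.08 and 10.01 under U0126, 9.64, 9.81 and 9.70 under TAE226, and 9.36, 9.46 and 9.43 under PP2. It fell 1.61-fold under PP2, 1.3-fold under TAE226 and 1.2-fold under DAPT (adjusted p = 3.8e-07, 0.000522 and 0.00794), and the U0126 arrays overlapped vehicle. Among the epsilon polymerase genes, Pole2 fell 1.68-fold under PP2 and 1.34-fold under U0126, and the catalytic Pole fell 1.8-fold under PP2 and 1.45-fold under DAPT. The DAPT call of Pole was lost without vehicle array 1 or DAPT array 1 or 2, at 0.0523 to 0.0635. The alpha polymerase genes Pola1 and Pola2 fell under PP2 alone among the 4 comparisons, 1.42- and 1.44-fold.

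Rpa1, the large subunit of the single-strand binding protein RPA, was 1 of the 2 members that rose. Its log2 signals were 11.58, 11.54 and 11.62 in vehicle, 11.55, 11.42 and 11.36 under DAPT, 11.80, 11.83 and 11.73 under U0126, 11.40, 11.49 and 11.43 under TAE226, and 11.11, 11.21 and 11.08 under PP2. The U0126 arrays lay above every other array and the PP2 arrays below every other. The rise under U0126 was 0.21 (SE 0.06, adjusted p = 0.00711), which became 0.13 (adjusted p = 0.319) when arrays were centred on their medians, and the PP2 fall was 1.36-fold (adjusted p = 5.28e-06). Rpa2, another RPA subunit, went down under U0126 instead, by 0.23, and Rpa3 differed by 0.07 there (adjusted p = 0.393).

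Pcna, the clamp and the member with the highest mean signal, fell 1.28-fold under DAPT, 1.36-fold under U0126 and 1.41-fold under PP2 (adjusted p = 0.00711, 0.00109 and 0.000277). Lig1, the ligase that joins Okazaki fragments, fell 1.35-, 1.41- and 1.68-fold under DAPT, TAE226 and PP2. Fen1, which trims the flaps between those fragments, was not called by its probe set in any of the 4 comparisons, with differences from -0.15 to 0.18. A second Fen1 probe set gave -0.59, -0.43, -0.19 and -0.47, and by it Fen1 was called lower under DAPT, U0126 and PP2 (adjusted p = 0.000412, 0.00363 and 0.0014). With the mean of all probe sets, the calls of Rfc1 under DAPT, U0126 and TAE226, of Rfc2 under TAE226, of Pole2 under all 4 inhibitors and of Pola1 and Prim2 under PP2 were lost.

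The nucleotide supply genes were lower under PP2 and DAPT and not under U0126. All 3 tested genes fell under PP2 and DAPT, and 2 fell under TAE226. With arrays centred on their medians 3 fell under TAE226, where 37.2% of all genes were lower. None was called under U0126, although Rrm2 was called higher there in other settings given below. Medians were -1.27, -0.41, -0.20 and 0.13. In direct contrasts all 3 were higher under U0126 than under DAPT, TAE226 and PP2, although the Rrm1 call against TAE226 (adjusted p = 0.0134) was lost without U0126 array 2 (0.0814) or TAE226 array 3 (0.067).

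Tk1, the thymidine kinase of the salvage pathway, had log2 signals of 10.95, 10.95 and 11.13 in vehicle, 10.49, 10.57 and 10.53 under DAPT, 10.96, 10.88 and 10.91 under U0126, 10.34, 10.17 and 9.83 under TAE226, and 9.24, 9.26 and 9.30 under PP2. The U0126 arrays overlapped vehicle, and the other groups stood below it in the order DAPT, TAE226, PP2 without overlap. It fell 3.35-fold under PP2 (log2 -1.74, SE 0.09, adjusted p = 1.39e-10), 1.86-fold under TAE226 (1.93e-06) and 1.4-fold under DAPT (0.000709). The TAE226 fall was the deepest of any member under that inhibitor. Under U0126 the difference was -0.09, with a 95% interval of -0.29 to 0.10.

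Rrm2, the S-phase subunit of ribonucleotide reductase, gave 11.23, 11.16 and 11.19 in vehicle, 10.78, 10.78 and 10.78 under DAPT, 11.42, 11.27 and 11.38 under U0126, 11.09, 10.98 and 10.92 under TAE226, and 9.78, 10.07 and 9.91 under PP2. No group overlapped another, and U0126 was the only one above vehicle, by 0.17 (adjusted p = 0.0583, 95% interval 0.02 to 0.31). The difference was called with a probe set that lacks the cross-hybridisation mark (0.37, adjusted p = 0.00392), under quantile normalization (0.19, 0.0403), and without U0126 array 2 or PP2 array 1 or 2 (0.0319 to 0.0379). Its falls were 2.41-fold under PP2 (adjusted p = 1.39e-10) and 1.33-fold under DAPT (0.00017). Under TAE226 the fall of 1.14-fold (adjusted p = 0.0387) was lost without any vehicle array or TAE226 array 2 or 3, at 0.0581 to 0.150, and the other Rrm2 probe sets gave -0.37 and 0.02 there. Rrm1, the large subunit, read 10.92, 10.90 and 11.06 in vehicle, 10.67, 10.63 and 10.75 under DAPT, 10.98, 11.28 and 11.01 under U0126, 10.87, 10.76 and 10.63 under TAE226, and 9.96, 10.36 and 10.27 under PP2. It fell 1.69-fold under PP2 (adjusted p = 6.87e-06). The DAPT fall of 1.21-fold (adjusted p = 0.0426) was lost without any vehicle or DAPT array or TAE226 array 2, at 0.0524 to 0.142. Another bright Rrm1 probe set gave -0.27 under DAPT and -0.77 under PP2. A dim one, above the array median on 0 of 15 arrays, gave 2.16 and 1.93. With the mean of all its probe sets, the dim one included, Rrm1 differed by 0.54 under DAPT and 0.13 under PP2, neither called.

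All 4 tested genes that copy chromatin or its methylation fell under PP2, 3 fell under DAPT, 1 under TAE226 and 1 under U0126. Medians were -0.75, -0.39, -0.21 and -0.25. Median centring of the arrays left all 4 lower under DAPT and TAE226 as well, where the TAE226 median was -0.46, and 2 were lower under U0126. In that setting 21.3%, 37.2% and 21.2% of all genes were lower under DAPT, TAE226 and U0126. Uhrf1, which guides the maintenance methyltransferase to newly copied DNA, had log2 signals of 9.94, 9.74 and 9.69 in vehicle, 9.08, 8.88 and 9.00 under DAPT, 9.87, 9.24 and 9.29 under U0126, 9.24, 8.98 and 9.12 under TAE226, and 8.10, 8.15 and 7.78 under PP2. One U0126 array lay within the vehicle range and the other two below it. The falls were 3.43-fold under PP2 (log2 -1.78, SE 0.14, adjusted p = 2.62e-08), 1.74-fold under DAPT (0.000404) and 1.6-fold under TAE226 (0.00186). Under U0126 the difference of -0.33 had an adjusted p of 0.0832. Without U0126 array 1 it was -0.53 (adjusted p = 0.00251), and it was also called with arrays centred on their medians (-0.41, 0.0157) and with the replicate block (0.0361). A second, dimmer Uhrf1 probe set gave 0.27 under U0126 and -0.81 under PP2.

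Dnmt1, that methyltransferase, read 10.48, 10.37 and 10.66 in vehicle, 10.18, 10.23 and 10.15 under DAPT, 10.45, 10.30 and 10.26 under U0126, 10.27, 10.51 and 10.29 under TAE226, and 9.91, 10.04 and 9.88 under PP2, and fell 1.48-fold under PP2 (adjusted p = 2.4e-05). It also fell 1.24-fold under DAPT (adjusted p = 0.00731), a call that ended when a probe set without the cross-hybridisation mark was taken (-0.04, adjusted p = 0.6). Chaf1b, a subunit of the CAF-1 histone chaperone, gave 8.06, 7.89 and 8.37 in vehicle, 7.73, 7.67 and 7.53 under DAPT, 7.98, 8.20 and 8.25 under U0126, 7.84, 7.77 and 7.88 under TAE226, and 7.02, 7.21 and 7.26 under PP2. It was 1.92-fold lower under PP2 (adjusted p = 1.63e-05) and 1.38-fold under DAPT (0.0125), the latter lost without vehicle array 3 (0.0747) or DAPT array 3 (0.0548). These 2 genes had falls under DAPT and PP2 and none called under U0126.

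Slbp, which binds histone mRNA, was lowest under U0126 and PP2. Its log2 signals were 11.49, 11.52 and 11.74 in vehicle, 11.48, 11.43 and 11.33 under DAPT, 11.28, 11.22 and 11.12 under U0126, 11.41, 11.49 and 11.43 under TAE226, and 11.17, 11.30 and 11.20 under PP2. U0126 lowered it 1.3-fold (adjusted p = 0.000254) and PP2 1.29-fold (0.000262), while DAPT and TAE226 did not pass on the deposited scaling. Without vehicle array 1 its DAPT difference was called (-0.22, adjusted p = 0.0374). A dimmer Slbp probe set gave 0.01 under PP2 and -0.23 under U0126. With the mean of all probe sets, Chaf1b and Slbp lost their PP2 calls (adjusted p = 0.476 and 0.888), Chaf1b its DAPT call (0.432) and Slbp its U0126 call (0.138).

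The repair and checkpoint genes had the deepest median fall of the 6 roles under DAPT and TAE226. Of 8 genes, 7 fell under PP2, 6 under DAPT, 6 under TAE226 and 1 under U0126, where 1 rose. Medians were -1.03, -0.59, -0.48 and -0.18, and no test compared roles with each other.

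Exo1, an exonuclease of mismatch repair and end resection, had log2 signals of 8.30, 8.05 and 8.24 in vehicle, 7.18, 7.38 and 7.14 under DAPT, 8.20, 8.17 and 7.89 under U0126, 7.75, 7.88 and 7.68 under TAE226, and 6.77, 6.78 and 6.91 under PP2. U0126 overlapped vehicle and the other groups were below it. The DAPT fall of 1.94-fold (log2 -0.96, SE 0.13, adjusted p = 2.21e-05) was the deepest of any member under that inhibitor, and the PP2 fall was 2.59-fold (1.51e-07). Its TAE226 fall of 1.34-fold (adjusted p = 0.0191) was lost without vehicle array 1 or 3 or TAE226 array 1 or 3, at 0.0523 to 0.0779.

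Dtl, which directs the destruction of Cdt1 in S phase, read 8.75, 8.74 and 8.81 in vehicle, 7.68, 8.07 and 7.85 under DAPT, 8.72, 8.30 and 8.53 under U0126, 8.00, 8.26 and 8.23 under TAE226, and 7.37, 7.61 and 7.14 under PP2. It fell 1.87-fold under DAPT, 1.52-fold under TAE226 and 2.63-fold under PP2 (adjusted p = 0.000106, 0.00362 and 3.61e-07). Brca1, of homologous recombination, gave 8.48, 8.58 and 8.65 in vehicle, 7.98, 8.02 and 8.08 under DAPT, 8.19, 8.49 and 8.28 under U0126, 8.00, 8.06 and 7.60 under TAE226, and 7.09, 7.43 and 7.27 under PP2. It fell 1.46-, 1.6- and 2.47-fold under the same 3 inhibitors. For both genes the U0126 difference was -0.25, not called, with 95% intervals of -0.55 to 0.04 for Dtl and -0.53 to 0.03 for Brca1.

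Msh6, a mismatch recognition protein, was the other member that rose. Its log2 signals were 10.10, 10.12 and 10.15 in vehicle, 10.15, 10.11 and 10.20 under DAPT, 10.41, 10.50 and 10.60 under U0126, 10.29, 10.26 and 10.24 under TAE226, and 9.71, 9.66 and 9.71 under PP2. U0126 raised it 1.3-fold (log2 0.38, SE 0.06, adjusted p = 4.61e-05) and PP2 lowered it 1.35-fold (7.38e-06), with the arrays of both groups clear of vehicle. Chek1, the checkpoint kinase, fell under all 4, from 1.28-fold under U0126 to 2.18-fold under PP2. Ung, which removes uracil from DNA, fell 1.59-, 1.52- and 1.92-fold under DAPT, TAE226 and PP2. Blm, a helicase of recombination, fell 1.46-fold under DAPT and 1.91-fold under PP2, and its TAE226 fall of 1.31-fold was lost without vehicle array 1 or 3 or TAE226 array 1 or 3, at 0.0637 to 0.0858. Brca2 was not called in any of the 4 (PP2 -0.27, adjusted p = 0.157), but under PP2 it was called lower without vehicle array 2 (-0.45, 0.0193) and with arrays centred on their medians (-0.49, 0.00463). With the mean of all probe sets, Exo1 lost its calls under DAPT, TAE226 and PP2 (adjusted p = 0.521, 0.879 and 0.19), and Dtl and Brca1 theirs under DAPT (0.285 and 0.153) and TAE226 (0.179 and 0.361). A dimmer Dtl probe set gave -0.02, 0.39, 0.00 and 0.01 for DAPT, U0126, TAE226 and PP2.

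The inhibitors were also contrasted directly in 6 pairs from the same fit. These compounds are not analogues, and their doses are not given, so the contrasts compare these cultures at the doses used. PP2 was lower than each of the others at most members: 37 of 52 against DAPT, 40 against U0126 and 42 against TAE226, where 21.7%, 27.9% and 23.3% of all genes were lower under PP2. Members higher under PP2 numbered 0, 1 and 1, where 18%, 27.7% and 20.2% of all genes were higher. The exceptions were Orc2, higher under PP2 than U0126, and Rfc2, higher under PP2 than TAE226 by 0.26 (adjusted p = 0.0264). The Orc2 call was lost without U0126 array 1 or any PP2 array, at adjusted p-values of 0.0507 to 0.170, and that of Rfc2 without TAE226 array 1 or 3 or PP2 array 2 or 3, at 0.0615 to 0.157. With arrays centred on their medians they had adjusted p-values of 0.491 and 0.0633. Over both directions, 29 of 37 calls between DAPT and PP2 held with any array left out. So did 39 of 41 between U0126 and PP2 and 36 of 43 between TAE226 and PP2. The others were lost in some refits, at adjusted p-values of 0.0501 to 0.197. Median differences were 0.42 for DAPT minus PP2, 0.60 for U0126 minus PP2 and 0.55 for TAE226 minus PP2.

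DAPT and U0126 differed at 20 members. DAPT was the lower for 19 and the higher for 1, where 21.6% of all genes were lower and 23.1% higher, with Exo1 lower by 0.85 (SE 0.13, adjusted p = 4.88e-05), Dtl by 0.65 (0.00134), Rrm2 by 0.58 (3.35e-06) and Cdt1 by 0.55 (7.02e-06). The exception was Slbp, higher under DAPT by 0.21 (adjusted p = 0.0192). Of the 20 calls, 14 held with any array left out, and Orc1, Prim1, Rpa2, Slbp, Uhrf1 and Ung did not, at 0.0512 to 0.113. DAPT and TAE226 differed at 7 members, 5 lower under DAPT and 2 higher, where 11.2% and 11.4% of all genes were: Exo1, Mcm7, Gmnn, Cdt1 and Rrm2 were lower under DAPT, and Tk1 and Rfc5 lower under TAE226. Only Tk1 and Rfc5 of these remained called when arrays were centred on their medians, and Cdt1, Rfc5 and Rrm2 lost the call without some single arrays, at 0.0588 to 0.111.

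U0126 and TAE226 differed at 19 members, with calls in both directions. In this pair 14 members were higher under U0126 and 5 lower, where 17.7% of all genes were higher and 19.4% lower. All 3 nucleotide genes were higher under U0126, with Tk1 higher by 0.80 (SE 0.09, adjusted p = 4.88e-06), Rrm2 by 0.36 (0.000528) and Rrm1 by 0.34 (0.0134). Also higher were Rfc5 by 0.42 (adjusted p = 0.00119), Rpa1 by 0.35 (0.000156) and Cdt1 by 0.33 (0.00137). The 5 lower under U0126 were Fen1, Orc2, Mcm6, Mcm7 and Slbp, by 0.24 to 0.33. None of these 5 passed when arrays were centred on their medians (adjusted p = 0.322 to 0.635). Of the 19 calls, 11 held with any array left out, and Brca1, Gmnn, Mcm6, Orc2, Prim1, Rrm1, Slbp and Ung did not, at 0.0501 to 0.189.

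**Figure D3:**
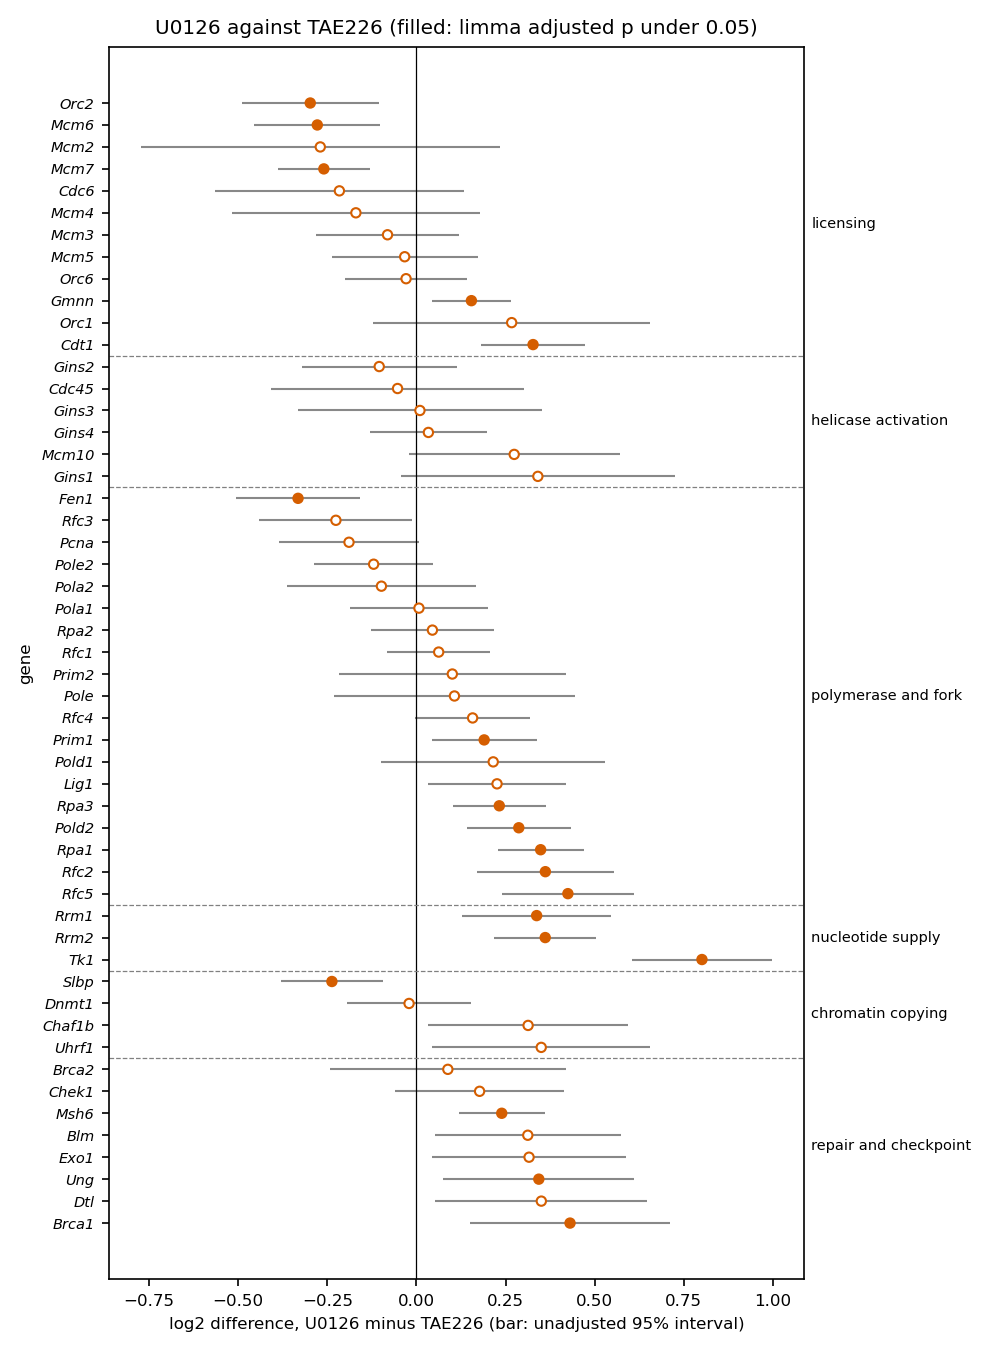
Difference in log2 signal, U0126 minus TAE226, for each tested member (rows, sorted within role), with unadjusted 95% intervals as bars. Filled points have an adjusted p under 0.05. Points right of 0 are higher under U0126, and Tk1 lies furthest out at 0.80. The 5 filled points left of 0 were not called when arrays were centred on their medians.

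A list of genes that control entry into S phase was set beside the members. Of 22 such genes, 12 were lower under DAPT, 7 under TAE226, 15 under PP2 and 2 under U0126, and 0, 1, 3 and 6 were higher, with medians of -0.36, -0.10, -0.84 and 0.15. Under U0126 the other 14 were not called, and 21.3% of all genes were lower and 19.4% higher. No test compared this list with the members. E2f1, an activating E2F, read 7.36, 7.65 and 7.38 in vehicle and 8.33, 8.19 and 7.82 under U0126, a rise of 0.65 (SE 0.18, adjusted p = 0.00957) with no overlap. Cdkn1b, which encodes the CDK inhibitor p27, read 11.35, 11.32 and 11.38 in vehicle and 10.79, 10.61 and 10.74 under U0126, a fall of 0.64 (adjusted p = 8.92e-08), and it fell by 0.61 under TAE226. With arrays centred on their medians 1 of these 22 genes, E2f1, was still higher under U0126, and 1 was higher under PP2. In that setting 16 were lower under TAE226, where 37.2% of all genes were lower. Under PP2, Ccnd1 (cyclin D1) read 12.39, 12.57 and 12.62 against 13.78, 13.76 and 13.77 in vehicle, and Myc 10.09, 10.17 and 10.09 against 11.35, 11.33 and 11.42, each a fall of 1.25. Rb1, the retinoblastoma gene, rose under PP2, from 11.20, 11.22 and 11.08 to 12.23, 12.23 and 12.33 (log2 1.09, adjusted p = 3.37e-10).

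A second list held 35 other replication genes, 32 of them tested. Lower and higher counts were 16 and 0 under DAPT, 10 and 2 under U0126, 19 and 0 under TAE226, and 24 and 0 under PP2, with medians of -0.29, -0.09, -0.32 and -0.58. After median centring none was higher under U0126. Dscc1, of an alternative clamp loader, fell by 0.90 under U0126 (SE 0.19, adjusted p = 0.00125) and by 1.23 under PP2 (4.72e-05), and Pole4, a small epsilon polymerase subunit, fell by 0.68 under U0126 (7.47e-05). Rad51ap1, of homologous recombination, fell by 1.44 under PP2 (adjusted p = 1.32e-06) and by 0.65 under DAPT (0.00501). Hells, a chromatin remodeller, fell by 1.29 under PP2 and 0.52 under TAE226.

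The mitotic genes stand beside the members as the later part of the cycle. Of 24 tested, 22 were lower under DAPT, 21 under TAE226, 23 under PP2 and 1 under U0126, where 3 were higher. Their medians were -0.76, -0.54, -1.51 and 0.01, against -0.33, -0.24, -0.75 and -0.16 for the replication genes. Under DAPT, TAE226 and PP2 the mitotic median was thus further below 0 than that of the replication genes, and under U0126 the replication median was the lower. Mki67, the proliferation marker, was the 1 mitotic gene lower under U0126, by 0.39 (adjusted p = 0.0135, and 0.0579 without vehicle array 3). The 3 higher ones, Aurka, Cdk1 and Ccnb2, had no call when arrays were centred on their medians.

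**Figure D4:**
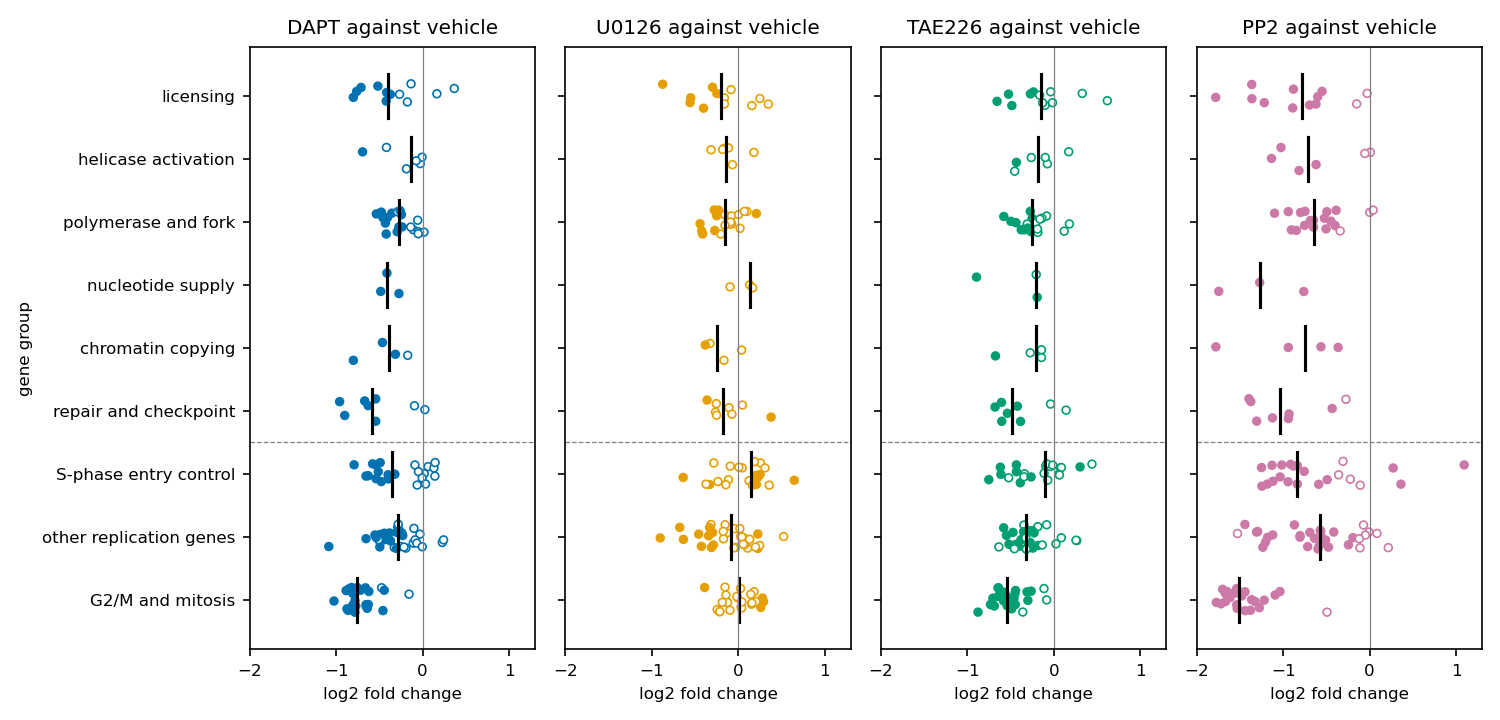
Log2 fold change against vehicle for each gene (points, filled at an adjusted p under 0.05) in the 6 roles of members and, below the dashed line, 3 lists of related genes, with 1 panel per inhibitor and the median of each group as a vertical bar. The mitotic medians are -0.76, 0.01, -0.54 and -1.51 for DAPT, U0126, TAE226 and PP2, and nucleotide supply is the role whose median lies above 0 under U0126, at 0.13.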

How the data were processed

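Each of 15 total RNA samples was hybridised to 1 Affymetrix Mouse430_2 array. Signal intensities were made by the authors with Affymetrix Expression Console and MAS5, per the submitters' processing notes, with versions and settings not given in the sources used here. In the deposited table the intensity mean, trimmed by 2% at each end, is 500 on every array, so a shift shared by most genes can be hidden. Of 45101 probe sets, 34945 had 1 annotated gene, 932 several and 9160 none, and 64 were controls. Of the 34945, 34741 matched the reference gene table by Entrez identifier and 204 kept the annotation's symbol. Log2 intensities, without a pseudocount, were fitted in limma 3.58.1 (R 4.3.3) with 1 coefficient per group over all 15 arrays and an intensity trend (10 residual and 6.10 prior degrees of freedom). Tests were two-sided, the Benjamini-Hochberg adjustment ran over all 11458 tested genes, and an adjusted p under 0.05 was called. The median SE was 0.0975. The fit was tested on simulated data. In each role the 4 members with the largest F statistic are given on every array, and of each related list at most 4 called genes per comparison are named, with members of lists otherwise given by counts and folds. Genes named outside this rule were chosen after their values were seen. Members and lists were chosen with earlier results of these data known.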

Additional observations from a re-analysis of the deposited data

How the results depend on the processing

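Directions of the members' medians held in all 4 comparisons under every alternative run. These were 3 other scalings (1 of them, centring on the genes tested, chosen after seeing the data), a pseudocount of 64, no filter, other choices of probe set, no intensity trend, a fit on only the 2 groups compared, the replicate block and the omission of each array. With arrays centred on their medians, the member medians were -0.47 (DAPT), -0.24 (U0126), -0.50 (TAE226) and -0.97 (PP2). There 1 member was higher under U0126, 43 were lower under TAE226, where 37.2% of all genes were lower, and DAPT and TAE226 differed at 2. The pseudocount gave a PP2 median of -0.65. With the mean of all probe sets of a gene, 20 members were lower under DAPT, 9 under U0126 and 15 under TAE226, DAPT and PP2 differed at 23, and medians were -0.083 under U0126, -0.16 under TAE226 and -0.57 under PP2. Some members fell below the filter on dim genes in that setting, so these counts are over fewer members. Of the reported calls, only 30 under DAPT, 16 under U0126, 23 under TAE226 and 41 under PP2 could be compared. Shares over all genes are not given for that setting. In that setting Rrm1 turned to 0.54 under DAPT and 0.13 under PP2, and Cdc45 to 0.050 under PP2, none of them called. The Rrm1 mean includes a probe set above the array median on 0 of 15 arrays. A fit on 2 groups alone called 1 member higher under DAPT and 1 under TAE226. Omitting 1 array gave 0 to 1 member higher under TAE226. The replicate block gave 31, 14, 23 and 45 lower members for DAPT, U0126, TAE226 and PP2 and changed no count of calls by over 1.5 times. Same-numbered arrays did not deviate together (correlations from -0.243 to 0.202 over 30 pairs), so the numbers were not taken as pairs. Over the 52 tested members, the 4 comparisons with vehicle and 25 settings, 144 of 5188 values lost a call and 72 gained one, and none called in both turned its sign.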
